A study of Mus musculus with 6 samples.

Results

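The genes described here encode chaperones, disulfide isomerases, degradation factors and stress sensors of the endoplasmic reticulum (ER). They were 34 genes chosen by name, at any level of expression, out of 21047 genes with a measurement, and all 34 passed the filter on low values. The study sequenced RNA of iBMDM, immortalised macrophages grown from mouse bone marrow, in 3 libraries of the A20KO genotype and 3 libraries of the WT genotype. The A20KO line was made to lack A20 (gene Tnfaip3), a ubiquitin-editing brake on NF-kB, and the series asks what A20 does in macrophages. Both genotypes were immortalised, and the labels name no treatment, stimulus or time for either. The sources used here do not say how the line was edited or whether it is 1 clone. The labels do not say whether replicates were separate cultures, so the p-values reflect the spread between these libraries alone, and that spread may be technical.

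Proteins bound for the cell surface, the lysosome or secretion enter the ER through the Sec61 channel, where chaperones led by BiP bind them while disulfide isomerases form and rearrange their disulfide bonds. Proteins that fail to fold are trimmed of sugars by the EDEM mannosidases, pulled back across the membrane, ubiquitinated by the SEL1L and HRD1 ligase and destroyed by the proteasome. When unfolded proteins accumulate, the sensors IRE1 (gene Ern1) and ATF6 are activated, IRE1 splices the messenger RNA of the transcription factor XBP1, and these factors induce chaperone and degradation genes. Macrophages use this machinery to make Toll-like receptors, integrins, cytokines and lysosomal enzymes.

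The libraries were of similar size, with 13308840 to 14433653 reads assigned to genes in A20KO and 13722924 to 15130697 in WT. Tnfaip3 had 194, 196 and 189 normalized reads in the A20KO libraries, against 389, 382 and 437 in the WT libraries (log2 fold change -1.06, SE 0.101, adjusted p = 7.1e-14 with limma). The RNA of the targeted gene was lower but present, and the counts do not show which part of the gene was edited. Each of 10 macrophage markers had a read, and their summed level was 27027 to 27532 normalized reads in A20KO and 30479 to 31102 in WT, but single markers moved both ways, with 3 higher and 5 lower by limma. Higher were Csf1r (5348 normalized reads in A20KO and 2497 in WT), Fcgr1 (623 in A20KO and 104 in WT) and Mertk (12.4 in A20KO and no read in WT). Lower were Lyz2 (6295 in A20KO and 9369 in WT), Cd14 (2465 in A20KO and 4325 in WT), Itgam (448 in A20KO and 767 in WT), Spi1 and Cd68. Because plasma cells are rich in ER chaperones, their markers were read too, 4 of the 6 listed. Sdc1, which was plentiful in both genotypes, averaged 1861 normalized reads in A20KO and 1832 in WT, Mzb1 averaged 5.33 in A20KO and 7.64 in WT, and Tnfrsf17 averaged 0.977 in A20KO and had no read in WT. Irf4 was higher, with 73.5 normalized reads in A20KO and 51.1 in WT (adjusted p = 0.038 with limma). Among 6 neutrophil markers 4 had a measurement. S100a8 was lower (42.6 in A20KO and 112 in WT), and Camp averaged 6.68 in A20KO and 4.63 in WT. Elane and Mpo had no read in A20KO and averaged 1.64 and 0.965 in WT. Among 5 dendritic cell markers 3 had a measurement. Zbtb46 was higher (75.2 in A20KO and 34.8 in WT). Xcr1 averaged 3.65 in A20KO and 4.40 in WT, and Flt3 averaged 0.652 in A20KO with no read in WT. The B cell markers Cd79a and Cd22 averaged 5.68 and 1.65 in A20KO and 5.30 and 0.324 in WT. The part of these markers in the results below was not tested. Of 5 fibroblast markers 2 had a measurement, and they summed to at most 3.15 normalized reads in any library. Of 4 epithelial markers 1 had a measurement, with at most 2.91. Of 6 T cell markers 2 had a measurement. Lck averaged 46.0 normalized reads in A20KO and 44.3 in WT, and Cd4 averaged 0.652 in A20KO and had no read in WT. In bulk RNA, fewer cells of a type and less RNA per cell cannot be told apart.

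Most of the chaperones and disulfide isomerases were lower in A20KO, and the sensors Atf6 and Ern1 were higher. The degradation genes went both ways, in shares near those of all genes tested. Of the 34 genes 19 fell and 5 rose, at a limma adjusted p under 0.05 over all 17376 genes tested. Among all genes tested, 19.6% were lower, 20.3% were higher and 39.8% passed in either direction. A fall of at least 0.5 on the log2 scale was seen in 8 of the 34 genes and in 8.54% of all genes tested. The median log2 fold change (A20KO over WT) was -0.26 over the 34 genes and 0.011 over all genes tested. No overlap between genotypes was seen in 28 of the 34 genes, 22 with A20KO all below WT and 6 with A20KO all above it. Among all genes tested 46.9% did not overlap, 22.4% with A20KO all below WT and 24.5% with A20KO all above it. Together these genes took 0.859%, 0.847% and 0.851% of the reads in the A20KO libraries, against 1.10%, 1.10% and 1.09% in the WT libraries. Leaving out each of the 6 libraries in turn left 5 to 6 of the 34 genes higher and 18 to 21 lower.

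**Figure D1:**
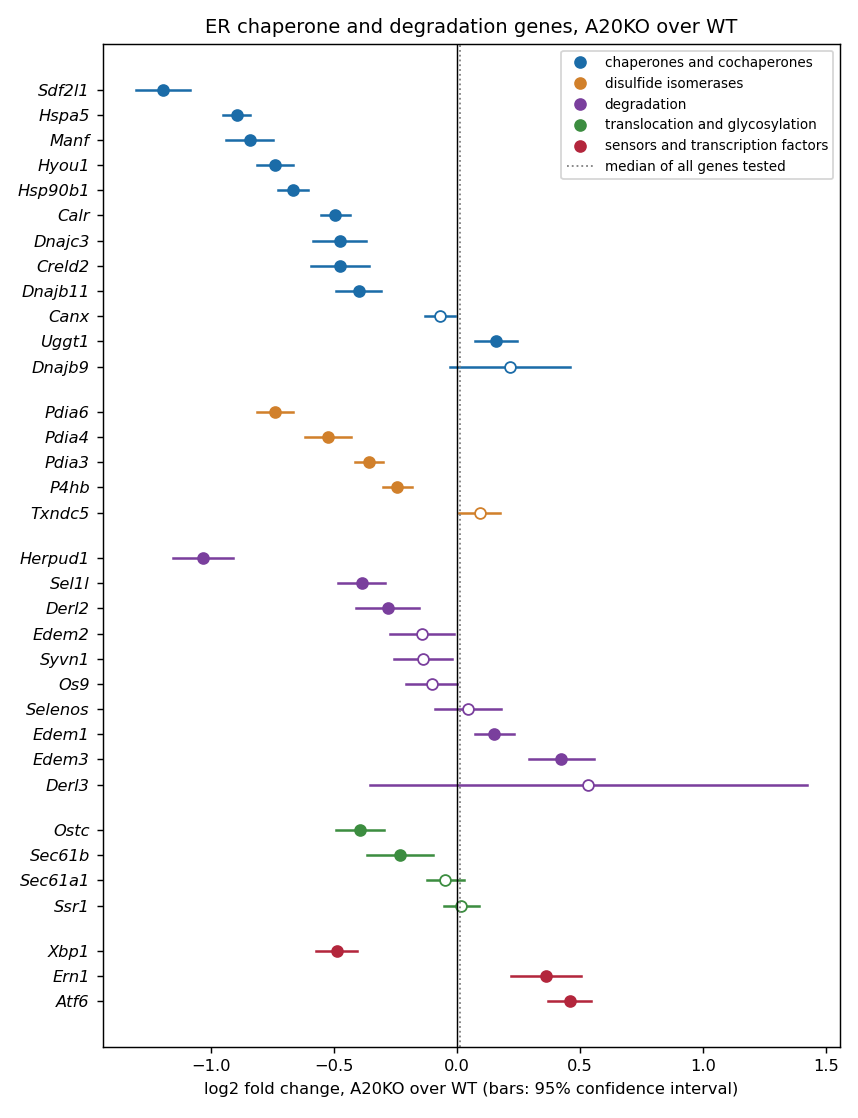
The log2 fold change (A20KO over WT) of each of the 34 genes is plotted with its 95% confidence interval from limma, grouped by class. Filled points passed an adjusted p of 0.05 and open points did not. Chaperones and disulfide isomerases lie mostly to the left of 0, down to -1.20 for Sdf2l1, while Atf6 and Ern1 lie to the right at 0.46 and 0.36.

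The chaperones and cochaperones fell in 9 of 12 cases, with a median log2 fold change of -0.49. Hspa5 encodes BiP, the Hsp70 chaperone of the ER lumen, and lies on the plus strand at chr2:34771970-34777547 (mm10). It had 13439, 12831 and 12721 normalized reads in the A20KO libraries, against 24486, 24023 and 23942 in the WT libraries. The groups lay far apart relative to their spread, and the log2 fold change was -0.89 (SE 0.0274, adjusted p = 1.6e-37), so the level fell by 46.2%. Its promoter carries the ER stress response element, the site through which ATF6 and XBP1 are known to act together with NF-Y, and the 300 bases around its start (chr2:34771840-34772139, plus strand, RefSeq, GRCm38.p6) are shown with that element in capitals, from 250 bases before the start to 50 after it.

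Hspa5 promoter: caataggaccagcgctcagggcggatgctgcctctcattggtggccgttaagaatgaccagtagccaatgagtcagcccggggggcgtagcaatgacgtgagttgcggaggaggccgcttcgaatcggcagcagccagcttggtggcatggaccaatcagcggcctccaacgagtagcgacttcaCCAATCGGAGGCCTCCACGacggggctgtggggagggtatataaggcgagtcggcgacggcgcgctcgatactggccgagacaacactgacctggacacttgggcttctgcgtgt

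Sdf2l1, which works with BiP and its J-domain partners, showed the largest fall of the 34 genes. It had 891, 908 and 842 normalized reads in A20KO, against 1871, 2107 and 2074 in WT (log2 fold change -1.20, SE 0.0545, adjusted p = 1.8e-28). Its highest A20KO value was below its lowest WT value by a wide margin. Manf, a secreted survival factor that binds BiP, had 1392, 1383 and 1325 normalized reads in A20KO, against 2337, 2566 and 2457 in WT (log2 fold change -0.84, SE 0.0484, adjusted p = 1.7e-23). Hyou1, the large Hsp70-like protein that exchanges nucleotide on BiP, had 3885, 3801 and 3746 normalized reads in A20KO, against 6203, 6357 and 6553 in WT (log2 fold change -0.74, SE 0.0365, adjusted p = 8.3e-27). In both genes all A20KO libraries were below all WT libraries. Other annotated genes overlap 9.25% of the exon bases of Manf. Among them, Rbm15b on the same strand averaged 788 normalized reads in A20KO and 878 in WT. Dcaf1 on the opposite strand averaged 809 in A20KO and 842 in WT. The part of these genes in the Manf count was not tested.

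Hsp90b1 encodes GRP94, the ER form of Hsp90, whose known clients include Toll-like receptors and integrins. It had 8061, 7814 and 8160 normalized reads in A20KO, against 12825, 12760 and 12536 in WT (log2 fold change -0.67, SE 0.0306, adjusted p = 2.7e-28). Of its exon bases 15.7% overlap other annotated genes. The largest of these in shared sequence, 1810014B01Rik on the opposite strand, averaged 84.2 normalized reads in A20KO and 66.6 in WT. Gm15344, on the same strand, averaged 24.6 in A20KO and 52.1 in WT. The part of these genes in the Hsp90b1 count was not tested. The remaining chaperones that fell did so by less than 0.5 on the log2 scale. They were Calr (-0.49), the lectin chaperone calreticulin, Creld2 (-0.48), a secreted protein induced by ER stress, and Dnajc3 (-0.48) and Dnajb11 (-0.40), J-domain cochaperones of BiP. Their largest adjusted p was 5.7e-10, for Creld2, and in each the A20KO values were all below the WT values.

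The exceptions among the chaperones were Canx, Uggt1 and Dnajb9. Canx and Uggt1 belong to the calnexin cycle, in which glycoproteins are bound by lectin chaperones and checked for folding. Calr, which fell, belongs to that cycle too. Dnajb9 is a J-domain protein, as are Dnajc3 and Dnajb11, which fell, so neither family was spared as a whole. Canx, the membrane-bound partner of calreticulin, had 10770, 10490 and 10528 normalized reads in A20KO, against 11228, 11400 and 10729 in WT. These ranges overlapped, and the log2 fold change was -0.069 (95% confidence interval -0.13 to -0.0080, adjusted p = 0.066), with the sign turned to 0.013 after quantile normalization. It passed without A20KO replicate 1 (adjusted p = 0.046) and without WT replicate 3 (0.012). Uggt1, the glucosyltransferase that returns misfolded glycoproteins to the lectins, rose slightly, with 2771, 2908 and 2830 normalized reads in A20KO and 2516, 2538 and 2574 in WT (log2 fold change 0.16, SE 0.0424, adjusted p = 0.0017). That call ended without the variance trend in limma (adjusted p = 0.081). Dnajb9, a J-domain protein known as a target of IRE1 and XBP1 and as a repressor of IRE1, had 218, 185 and 241 normalized reads in A20KO, against 184, 196 and 169.9 in WT. It overlapped between genotypes (log2 fold change 0.22, 95% confidence interval -0.026 to 0.46, adjusted p = 0.16), and 10.8% of its 31-base words also occur in Gm6568, which averaged 1.03 normalized reads in A20KO and 0.991 in WT.

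The disulfide isomerases fell in 4 of 5 cases, with a median log2 fold change of -0.36. Pdia6, which also binds BiP, had 4227, 4327 and 4093 normalized reads in A20KO, against 6849, 7328 and 6947 in WT (log2 fold change -0.74, SE 0.0362, adjusted p = 6.5e-27). Pdia4 had 1779, 1797 and 1881 normalized reads in A20KO, against 2744, 2579 and 2525 in WT (log2 fold change -0.52, SE 0.0460, adjusted p = 2.4e-15). Neither gene had an A20KO library within the WT range. Pdia3, the isomerase that works with calnexin and calreticulin, and P4hb, the classical protein disulfide isomerase, had log2 fold changes of -0.36 and -0.24 (adjusted p = 6.3e-17 and 2.7e-10). Txndc5 stood apart with 3340, 3301 and 3240.0 normalized reads in A20KO, against 3110, 2956 and 3207 in WT. Its A20KO values were all just above its WT values, without passing (log2 fold change 0.092, 95% confidence interval 0.010 to 0.17, adjusted p = 0.068), although it passed without WT replicate 3 (adjusted p = 0.023), after quantile normalization (0.037) and with edgeR and RLE scaling (0.047). Of its exon bases 11.9% overlap genes on the opposite strand, among them Gm31834, which averaged 13.3 normalized reads in A20KO and 4.31 in WT.

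**Figure D2:**
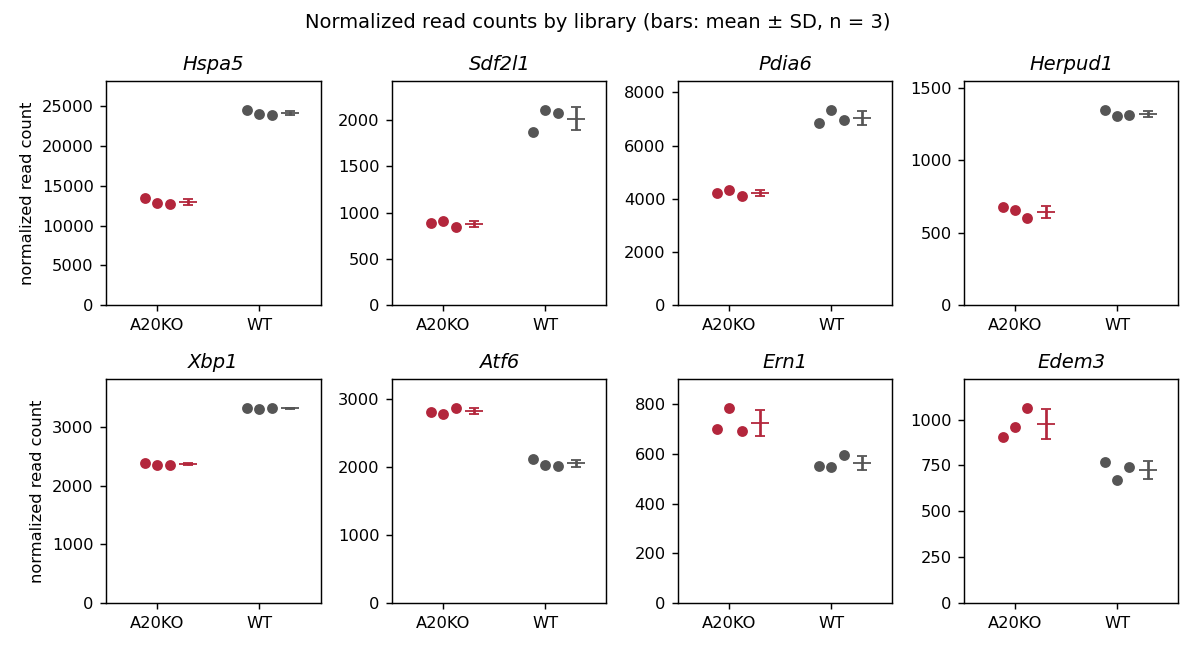
Normalized read counts are plotted for each A20KO and WT library, with the mean ± SD (n = 3 per genotype) beside the points and every axis starting at 0. Hspa5, Sdf2l1, Pdia6, Herpud1 and Xbp1 are lower in every A20KO library than in any WT library, and Atf6, Ern1 and Edem3 are higher.

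The genes of ER-associated degradation fell in 3 and rose in 2 of 10 cases (median log2 fold change -0.12). These counts are near the shares of all genes tested, of which 19.6% were lower and 20.3% higher. The fall was largest in Herpud1, a membrane protein that organises the HRD1 ligase complex and a target of the unfolded protein response (chr8:94386438-94395377, plus strand, mm10). It had 681, 657 and 599 normalized reads in A20KO, against 1345, 1304 and 1309.9 in WT (log2 fold change -1.03, SE 0.0613, adjusted p = 8.4e-23), with the groups far apart. Sel1l, the scaffold of the same complex, had 1836, 1851 and 2020.2 normalized reads in A20KO, against 2495, 2341 and 2630.3 in WT (log2 fold change -0.39, SE 0.0477, adjusted p = 3.6e-10). Derl2, a channel-like partner of the complex, fell by 0.28 on the log2 scale (adjusted p = 2.2e-04). For Syvn1, which encodes the ligase HRD1 itself, the values were 894, 919 and 882 normalized reads in A20KO, against 976, 985 and 1003 in WT. They did not overlap, but the log2 fold change of -0.14 did not pass (95% confidence interval -0.26 to -0.018, adjusted p = 0.060), while it passed with edgeR (0.034 with TMM and 0.042 with RLE scaling) and when only genes averaging 5 or more were tested (0.045).

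The 3 EDEM genes, whose products trim mannose from misfolded glycoproteins, did not move together. Edem3 rose, with 902, 959.5 and 1063 normalized reads in A20KO, against 768, 671 and 739 in WT (log2 fold change 0.42, SE 0.0659, adjusted p = 1.8e-07). Edem1 rose by less, with 3822, 3927 and 3972 normalized reads in A20KO and 3536, 3366 and 3655 in WT (log2 fold change 0.15, SE 0.0397, adjusted p = 0.0013), a call that ended without the variance trend (adjusted p = 0.12). Edem2 had 815, 895 and 791 normalized reads in A20KO, against 847, 964 and 949 in WT. Its values overlapped (log2 fold change -0.14, 95% confidence interval -0.27 to -0.014, adjusted p = 0.073), and it passed without A20KO replicate 2 (0.031), without WT replicate 1 (0.016) and with edgeR and TMM scaling (0.047). Os9, the lectin that hands trimmed glycoproteins to SEL1L, and Selenos, a selenoprotein of the same complex, had log2 fold changes of -0.10 (95% confidence interval -0.21 to 0.0017) and 0.045 (-0.089 to 0.18) and did not pass (adjusted p = 0.12 and 0.65). Os9 passed without WT replicate 1 (adjusted p = 0.034). Derl3 was close to the detection limit, with 10.7, 11.7 and 18.9 normalized reads in A20KO and 6.79, 12.4 and 8.39 in WT. At this depth its change was not detectable within an interval of -0.35 to 1.42 on the log2 scale (adjusted p = 0.38).

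Among genes of translocation and glycosylation, 2 of 4 fell (median log2 fold change -0.14). Ostc, a subunit of the oligosaccharyltransferase, had 1543, 1453 and 1491 normalized reads in A20KO, against 1929, 1999 and 1966 in WT (log2 fold change -0.39, SE 0.0486, adjusted p = 3.6e-10). Its genotypes were clearly apart. Sec61b, the beta subunit of the Sec61 channel, had 769.8, 713 and 713 normalized reads in A20KO, against 781, 921 and 879.9 in WT (log2 fold change -0.23, SE 0.0664, adjusted p = 0.0033). This call ended without WT replicate 2 (adjusted p = 0.057) and without the variance trend (0.11). In addition, 23.5% of the 31-base words of Sec61b occur in other genes, chiefly Gm10320, so the Sec61b count is uncertain. Gm10320 averaged 4.66 normalized reads in A20KO and 7.90 in WT, and its part in that count was not tested. Sec61a1, the pore subunit, had 4207, 4125 and 4191 normalized reads in A20KO and 4371, 4324 and 4246 in WT (log2 fold change -0.047, 95% confidence interval -0.12 to 0.027, adjusted p = 0.35). Ssr1, a subunit of the translocon-associated complex, had 5917, 5741 and 6018 normalized reads in A20KO and 5887, 5840.2 and 5723 in WT (log2 fold change 0.018, 95% confidence interval -0.051 to 0.088, adjusted p = 0.73). For Sec61a1 and Ssr1 the intervals reach no further than 0.12 from 0 on the log2 scale.

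The sensors and the transcription factor Xbp1 went in opposite directions. Atf6, the membrane-bound factor that is cut in the Golgi to release an activator of chaperone genes (chr1:170704674-170867771, minus strand, mm10), had 2801, 2782 and 2864 normalized reads in A20KO, against 2109, 2031 and 2010.5 in WT. Every A20KO library was above every WT library (log2 fold change 0.46, SE 0.0438, adjusted p = 6.8e-14). Ern1, which encodes the kinase and endoribonuclease IRE1 alpha (chr11:106394650-106487852, minus strand), had 699, 784 and 692 normalized reads in A20KO, against 550.3, 546 and 595 in WT (log2 fold change 0.36, SE 0.0713, adjusted p = 2.3e-05). Xbp1, whose RNA is the substrate of IRE1 (chr11:5520659-5525893, plus strand), had 2382, 2357 and 2356 normalized reads in A20KO, against 3320.4, 3306 and 3324 in WT. The libraries of a genotype were tight in this gene and the groups did not overlap (log2 fold change -0.49, SE 0.0415, adjusted p = 7.2e-16). Counts per gene do not tell spliced from unspliced Xbp1 RNA, and none of these counts measures the activity of a sensor protein.

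The genes with the highest levels per length were mostly among those that fell. Levels between genes were compared as RPKM, reads per kilobase of gene length in a library scaled to 1000000 reads. In WT the highest were Calr at 414 ± 8.16, Hspa5 at 397 ± 5.42, Pdia3 at 363 ± 10.3 and P4hb at 300.2 ± 4.05 RPKM (SD, n = 3), and the lowest were Ern1 at 4.79 ± 0.230 and Derl3 at 0.320 ± 0.0999. In A20KO, Hspa5 stood at 219 ± 5.95 RPKM, below Calr at 301 ± 8.08, Pdia3 at 290.0 ± 5.19 and P4hb at 260.1 ± 3.41, and its libraries were all below all libraries of those genes. Of the 10 genes with the highest WT level per length 9 fell and the other, Canx, did not pass, whereas of the 10 with the lowest 4 rose and 2 fell. The shares over all genes tested were 19.6% lower and 20.3% higher. Except for Xbp1, the 10 highest were chaperones and disulfide isomerases, and most of the 10 lowest were degradation genes. Level and class thus partly coincide, and their parts were not tested. Over the 33 genes with at least 100 normalized reads in WT, Pearson's r between log2 fold change and log2 WT level per length was -0.59 and Spearman's rho was -0.65. This is a description across genes of the same 6 libraries, which are not independent, and the WT values enter both axes.

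Promoters were searched because 3 short elements are known from the mammalian unfolded protein response. They were the ER stress response element ERSE, which is CCAAT and CCACG with 9 bases of any kind between them, the related ERSE-II, which is ATTGG and CCACG with 1 base between them, and the element UPRE, written TGACGTGG. Each was searched on both strands of RefSeq promoters (GRCm38.p6, 250 bases before to 50 after the start), which were listed for 29 of the 34 genes. Atf6, Hyou1, Manf, Ostc and Sec61a1 had no entry. ERSE occurred in 9 of the 29 genes and in 0.137% of all 27025 genes with a listed promoter (0.119% of all promoters). ERSE-II occurred in 2 of the 29 (6.90%) and in 0.0444% of all genes (0.0365% of promoters), and UPRE in 1 of the 29 (3.45%) and in 0.714% of all genes (0.676% of promoters). No match overlapped another in these genes.

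The ERSE and ERSE-II matches are shown as a sequence feature of these genes. The genes were chosen by name for their part in the ER, and these elements are known from the response that induces such genes. The choice was therefore not independent of the elements, and their higher share here than among all genes is a description only. Capitals mark the element, every line runs in the direction of the gene, and an element on the opposite strand appears as its reverse complement. The genes that fell come first.
Hspa5, ERSE (chr2:34772010-34772058, plus strand): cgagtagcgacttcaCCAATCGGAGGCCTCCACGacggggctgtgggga
Pdia6, ERSE (chr12:17266476-17266524, plus strand): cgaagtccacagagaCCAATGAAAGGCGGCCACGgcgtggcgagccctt
Dnajc3, ERSE (chr14:118937812-118937860, plus strand): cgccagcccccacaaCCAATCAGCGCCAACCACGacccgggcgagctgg
Hsp90b1, distal ERSE (chr10:86705623-86705671, minus strand): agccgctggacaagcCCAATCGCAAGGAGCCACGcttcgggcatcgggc
Hsp90b1, proximal ERSE, opposite strand (chr10:86705518-86705566, minus strand): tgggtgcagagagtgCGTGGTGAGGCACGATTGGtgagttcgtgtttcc
Calr, ERSE, opposite strand (chr8:84847060-84847108, minus strand): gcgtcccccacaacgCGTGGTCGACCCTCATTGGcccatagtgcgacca
Creld2, ERSE, opposite strand (chr15:88819505-88819553, plus strand): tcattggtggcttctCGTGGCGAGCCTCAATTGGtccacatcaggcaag
Herpud1, ERSE-II (chr8:94386362-94386402, plus strand): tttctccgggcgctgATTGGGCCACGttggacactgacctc
Dnajb11, ERSE-II (chr16:22857837-22857877, plus strand): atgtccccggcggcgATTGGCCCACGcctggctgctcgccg
The genes that hold a match and did not pass follow.
Canx, ERSE (chr11:50325785-50325833, minus strand): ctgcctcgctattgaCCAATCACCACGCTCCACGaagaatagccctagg
Syvn1, ERSE (chr19:6046517-6046565, plus strand): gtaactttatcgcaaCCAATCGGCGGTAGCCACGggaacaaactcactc
Derl3, ERSE, opposite strand (chr10:75893227-75893275, plus strand): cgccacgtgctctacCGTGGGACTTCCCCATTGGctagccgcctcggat

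Of the 11 genes with an ERSE or ERSE-II match 8 fell and none rose past the threshold of limma (median log2 fold change -0.48). None of these 11 rose at an unadjusted p under 0.05, with edgeR or with DESeq2 either. Of the 18 genes with a listed promoter and neither element 8 fell and 4 rose, with a median of -0.12, and Sdf2l1, Pdia4 and Xbp1 were among those that fell. Most of the 11 genes with a match are chaperones (Calr, Canx, Creld2, Dnajb11, Dnajc3, Hsp90b1 and Hspa5), a class in which 9 of 12 fell. Most degradation genes with a listed promoter hold neither element. The chaperones Sdf2l1, Uggt1 and Dnajb9 hold neither element, while Pdia6, Herpud1, Syvn1 and Derl3 hold a match outside that class. Element and class thus partly coincide, and their parts were not tested. The matches lay between 212 bases before the start, in the distal element of Hsp90b1, and 18 bases after it, in Dnajb11. Outside the module, 11 tested genes held an ERSE match, of which 1 rose and none fell with limma. At an unadjusted p under 0.05 these were 2 and 1, and with edgeR and with DESeq2 0 and 0. A further 8 tested genes outside the module held an ERSE-II match, of which 2 rose and 2 fell with limma, and as many with edgeR and with DESeq2. A match describes letters in a window, and the absence of one says only that these letters are not there.

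**Figure D3:**
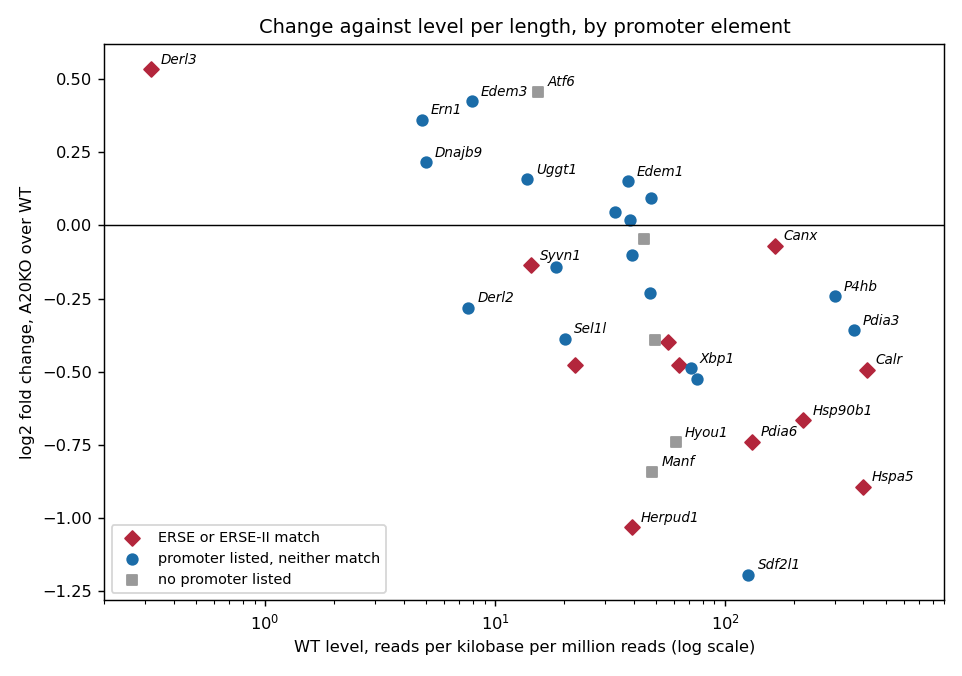
The log2 fold change (A20KO over WT) of the 34 genes is plotted against their WT level in RPKM on a log axis, with symbols for the promoter element. The genes with a match that fell run from Dnajb11 at -0.40 to Herpud1 at -1.03, while Canx, Syvn1 and Derl3 hold a match at -0.069, -0.14 and 0.53 without passing.

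Other genes of the same machinery were read from lists chosen by function. Beside these lists, 20.3% of all genes tested were higher and 19.6% lower, with a median log2 fold change of 0.011. Of 26 tested folding factors outside the 34 genes 9 rose and 9 fell (median log2 fold change 0.046). Ero1l, the oxidase that recharges disulfide isomerases, had 1830.3 ± 66.1 normalized reads in A20KO and 3294 ± 249 in WT (log2 fold change -0.85, SE 0.0468, adjusted p = 1.5e-23), and Qsox1, another sulfhydryl oxidase, had 69.2 ± 13.1 normalized reads in A20KO and 257 ± 10.2 in WT (-1.89, SE 0.147, adjusted p = 1.4e-17). Erp29 and Fkbp11, a noncatalytic relative of the isomerases and a prolyl isomerase, rose by 0.72 and 0.54 on the log2 scale. Of 23 tested degradation factors 7 rose and 2 fell, with a median of 0.064. Man1b1, the ER mannosidase, had 2232 ± 63.7 normalized reads in A20KO and 1365 ± 33.4 in WT (log2 fold change 0.71, SE 0.0484, adjusted p = 5.5e-20), Derl1 rose by 0.43, and Faf2 and Selenok moved down by log2 fold changes of -0.34 and -0.39. Of 28 translocation and glycosylation factors 7 rose and 9 fell, with a median of 0.035. Serp1, a stress-associated translocon protein, fell by 0.52, Magt1 fell by 0.56, and Tusc3 and Ost4 rose by 0.52 and 0.39.

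Of 17 tested regulators of the unfolded protein response 4 rose and 8 fell (median log2 fold change -0.089). Over all genes tested the shares were 20.3% higher and 19.6% lower (median 0.011). Trib3, a pseudokinase induced by ATF4, had 48.1 ± 8.65 normalized reads in A20KO and 404 ± 17.3 in WT (log2 fold change -3.06, SE 0.144, adjusted p = 8.5e-28). Atf4, the factor translated when PERK phosphorylates eIF2 alpha, had 3328 ± 136 normalized reads in A20KO and 5154 ± 149 in WT (-0.63, SE 0.0389, adjusted p = 5.0e-22). Nfya and Nfyc, subunits of the NF-Y factor that binds CCAAT, rose by 0.36 and 0.21. Its other subunit, Nfyb, had a log2 fold change of -0.064 and did not pass (adjusted p = 0.61 with limma). Eif2ak3, which encodes PERK, had a log2 fold change of 0.069 and did not pass (adjusted p = 0.62). Atf6b, a relative of Atf6, went the other way from Atf6. It had 1914 ± 128 normalized reads in A20KO and 2252 ± 199 in WT (-0.23, SE 0.0541, adjusted p = 5.3e-04 with limma). In other compartments, 9 of 24 tested cytosolic chaperones rose and 6 fell (median -0.017), with Hspa4l lower, as it fell by 1.33, Hspa8 lower, as it fell by 0.19, and St13 and Cct5 higher by 0.52 and 0.49. Of 14 mitochondrial chaperones and proteases 5 rose and 2 fell (median 0.044), with Hspd1 and Hspe1 higher by 0.37 and 0.31, and Yme1l1 and Lonp1 lower, as they fell by 0.26 and 0.19. Fkbp11, Derl1, Atf4, St13 and Cct5 lie on chromosome 15, as does Creld2, the only one of the 34 genes there. On that chromosome 355 genes rose and 47 fell of 662 tested (median log2 fold change 0.38), and its part in these values was not tested. No test compared these lists with each other.

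**Figure D4:**
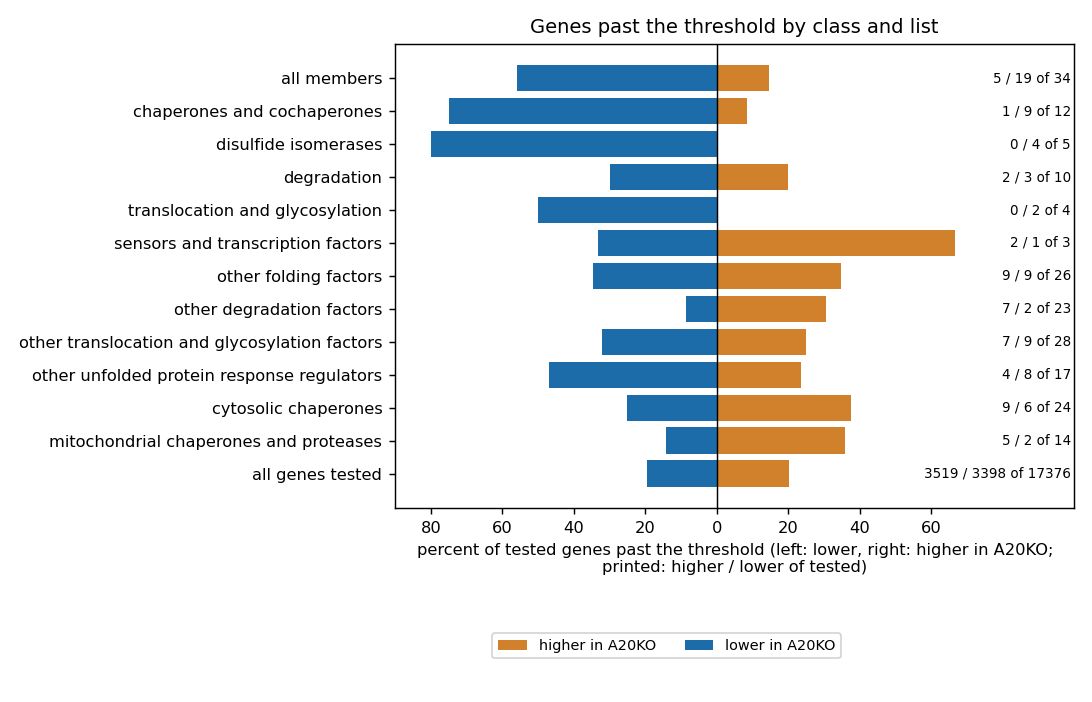
Bars give the percent of tested genes that passed an adjusted p of 0.05, lower in A20KO to the left and higher in A20KO to the right, for the 34 genes, their classes, the other lists and all genes tested. The chaperones (9 of 12 lower) and disulfide isomerases (4 of 5 lower) extend furthest to the left, beside 3398 of 17376 lower for all genes.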

How the data were processed

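Trizol-extracted RNA was made into libraries by a SMARTer mRNA-seq method (per the labels' protocols), and mm10 is the build named in the submitters' processing notes. The sources used here do not name the aligner, counter, annotation release or strand setting, so for genes that overlap on opposite strands the reads cannot be assigned to a strand. The authors deposited 1 normalized signal per gene and library, per the file headers, which is not corrected for length. Divided by the worth of 1 read in its library, every value (100%) came out whole to within 0.001 reads (size factors 0.952 to 1.05). The authors also deposited genotype means, a log2 fold change, a p-value with its adjusted value and the length of each gene, an other unit in bases.

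The test was limma 3.58.1 in R 4.3.3 (variance trend, robust prior) on log2 values with a pseudocount of 1, over the 17376 of 21047 genes that averaged at least 1 normalized read, with Benjamini-Hochberg adjustment over all of them and a threshold of 0.05. Changes of genes with few reads are understated by the pseudocount. The recovered reads were tested with edgeR 4.0.16 (quasi-likelihood), which called 3315 genes higher and 3371 lower with TMM scaling, and with DESeq2 1.42.0. Tested on simulated counts, the limma procedure let through somewhat more unchanged genes than its nominal share. The simulation changed far fewer genes than passed here, so that share need not hold in these data. Calls near the threshold are taken as less certain. The 34 genes, their classes and all lists were chosen with earlier results of these data known, so their counts are descriptions and no list was tested. Genes past the threshold with a change of at least 0.5 on the log2 scale and the sensors were given per library, as were others added after their values were seen. From each other list up to 2 genes per direction with the smallest adjusted p were named, and Eif2ak3, Nfyb and Atf6b were added after their values were seen. To find sequence in common with other genes, the 31-base words of each gene's GENCODE M21 transcripts were looked up in all other genes. Reads of replicates differed beyond sampling noise (chi-square 2.67 to 3.60 per degree of freedom where a pair held 10 reads or more), so no library was merged with another.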

Additional observations from a re-analysis of the deposited data

How the results depend on the processing

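Of the results for the single genes, Canx alone turned its direction, to 0.013 on the log2 scale after quantile normalization, and the cause was not tested. The 34 genes gave 510 values under the alternatives: 493 kept their direction and their side of the threshold, 12 newly passed and 4 no longer passed. Tnfaip3 kept its call in all alternatives. Without the variance trend in limma fewer genes passed (2440 higher and 2335 lower). The genes that rose were then 3 of the 34, 0 of the chaperones, 1 of the degradation genes, and 5, 2, 2, 4 and 3 in the lists of other folding factors, other translocation and glycosylation factors, response regulators, cytosolic chaperones and mitochondrial chaperones. Those that fell were 18 of the 34, 1 of the translocation genes, and 5, 4, 5, 2 and 1 in these lists. The disulfide isomerase Txndc5 was 1 riser after quantile normalization and with edgeR and RLE scaling. With edgeR and TMM scaling 5 degradation genes fell.

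Leaving out each library in turn left 5 to 6 of the 34 genes higher and 18 to 21 lower. It gave 0 to 1 disulfide isomerases higher (1 without WT replicate 3), 3 to 5 degradation genes lower (5 without WT replicate 1), 1 to 2 translocation genes lower (1 without WT replicate 2), 2 to 4 response regulators higher (2 without A20KO replicate 1, A20KO replicate 2 or WT replicate 1), 3 to 6 cytosolic chaperones lower (3 without A20KO replicate 2) and 3 to 4 mitochondrial chaperones higher (3 without A20KO replicate 1, A20KO replicate 2 or WT replicate 1). The cause of these shifts was not tested.

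Replicate numbers did not pair the libraries: deviations of same-numbered libraries correlated at -0.032 to 0.0054, and 1 of 6 libraries correlated best with its own number. With the replicate block 3432 genes were higher and 3297 lower, and 5 of the 34 genes were higher and 19 lower.

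Counts chosen after seeing the data differed little: 5 of the 34 genes were higher and 19 lower by the adjusted p-value in the authors' deposited table, and among genes that share under 10% of sequence and exon bases with others 5 were higher and 17 lower. At this depth Derl3 is the only one of the 34 genes with under 100 normalized reads in WT.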
